A study of Homo sapiens with 2 samples.

Results

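The caspases are genes of the deposited expression table whose symbol is CASP followed by digits alone. The rule matched 9 of 12075 protein-coding genes listed, and 7 are described. RNA of LNCaP was sequenced in 2 libraries. LNCaP is a prostate cancer cell line that responds to androgens, was grown from a lymph node metastasis, and is labelled wild type. The oe library came from LNCaP given CM of oe-YY1 M2 macrophages, and the nc library from LNCaP given CM of nc-YY1 M2 macrophages. M2 names a polarisation state of macrophages, YY1 is a zinc finger transcription factor, and the labels spell out neither oe, nc nor CM. Both treatment labels also carry the word cocultured and a day 0 time, and whether macrophages shared the dish with LNCaP is not stated. Each group held 1 library, so every comparison sets 1 library against another, without a replicate check or a p-value.

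Caspases are proteases that cut after aspartate and are made as inactive precursors. Initiator caspases carry long prodomains and are activated when adaptor proteins bring them together: CASP8 and CASP10 at death receptors, CASP9 on the apoptosome that forms when mitochondria release cytochrome c, and CASP2 on the PIDDosome. Executioner caspases, CASP6 among them, are cut by initiators and then dismantle the cell. Inflammatory caspases act in innate defence: CASP1 is activated by inflammasomes and matures interleukins, while CASP4 binds bacterial lipopolysaccharide directly, and both cut gasdermin D to open pores in the membrane.

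One feature that the members share is the active site, whose catalytic cysteine lies in a stretch of glutamine, alanine, cysteine, any residue and glycine. It is shown as coding bases, from GENCODE 29 transcripts of each member described, to let the members be compared where they are most alike. The capitals mark the 15 bases that encode that stretch, with 9 bases before and after:
CASP4: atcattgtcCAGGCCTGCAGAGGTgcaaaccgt
CASP1: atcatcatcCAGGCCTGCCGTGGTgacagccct
CASP8: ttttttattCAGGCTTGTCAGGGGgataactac
CASP10: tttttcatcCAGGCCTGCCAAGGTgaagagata
CASP9: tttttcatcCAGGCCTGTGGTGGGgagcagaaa
CASP2: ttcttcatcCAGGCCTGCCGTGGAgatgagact
CASP6: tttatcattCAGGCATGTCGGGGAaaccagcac
All 7 members described held the stretch, in 7 different spellings of its 15 bases. Reads shared between genes could blur a level. Of the distinct 50-base words in the GENCODE 29 transcripts of CASP4, 0.198% occurred in another gene, and for CASP8 the share was 0.930%. The member with the largest share was CASP1, with 4.37%, all of it shared with CARD16, a neighbouring gene that encodes a copy of the CASP1 recruitment domain. How reads were divided between CASP1 and CARD16 is unknown, so the low level of CASP1 is uncertain, and the share of words does not measure by how much.

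Values were deposited as FPKM, fragments scaled to transcript length and to the size of the library, which lets levels be compared between genes. The number of reads is unknown. Each log2 ratio is log2(FPKM + 1) of oe less the same of nc. Adding 1 shrinks the ratios of weakly expressed genes. A difference counted as 2-fold is at least 2-fold on that scale. Gene positions are those of the deposited table, whose identifiers point to build GRCh37.

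The 8 prostate luminal markers on the list were all in the table, and their summed FPKM was 399.7 in the oe library and 1112 in the nc library. None was past 2-fold higher and 5 were past 2-fold lower. For comparison, 5.83% of all genes reaching 1 FPKM in either library were lower by this rule, and 6.46% were higher. The 5 included KLK3, which encodes prostate-specific antigen (77.6 FPKM in the oe library, 358 FPKM in the nc library). Macrophages also express caspases, CASP1 and CASP4 among them. Of 20 macrophage and leukocyte markers 16 were not analysed here, and the 4 in the table summed to 13.0 FPKM in the oe library and 0.719 FPKM in the nc library. CTSS was measured at 5.87 FPKM in the oe library and 0.0409 FPKM in the nc library, and CD68 at 4.18 FPKM in the oe library and 0.632 FPKM in the nc library. ITGAM was at 2.34 FPKM in the oe library and 0.00787 FPKM in the nc library, and LYZ at 0.603 FPKM in the oe library and 0.0382 FPKM in the nc library. None of the 4 was at 0 in either library, but all 4 were under 1 FPKM in the nc library. None of them could therefore be past 2-fold lower. CTSS, ITGAM and LYZ reached 0.50 FPKM in the oe library alone. Their part in the caspase values was not tested, and in bulk RNA fewer cells of a type and less RNA per cell cannot be told apart.

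In the oe library the members described ranked from CASP8 at 23.8 FPKM and CASP4 at 13.7 FPKM, through CASP6 at 6.64 FPKM and CASP10 at 3.05 FPKM, to CASP2 at 1.32 FPKM, CASP9 at 1.28 FPKM and CASP1 at 1.22 FPKM. In the nc library the order was CASP8 at 7.62 FPKM, CASP6 at 5.96 FPKM, CASP4 at 2.57 FPKM, CASP2 at 1.89 FPKM, CASP9 at 1.35 FPKM, CASP10 at 0.485 FPKM and CASP1 at 0.0358 FPKM. With 1 library each, which neighbours in these orders differ beyond replicate spread could not be told. CASP8 was the highest and CASP1 the lowest of the 7 in both libraries, CASP4 stood above CASP6 in the oe library and below it in the nc library, and CASP10 stood above CASP2 and CASP9 in the oe library and below them in the nc library.

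**Figure D1:**
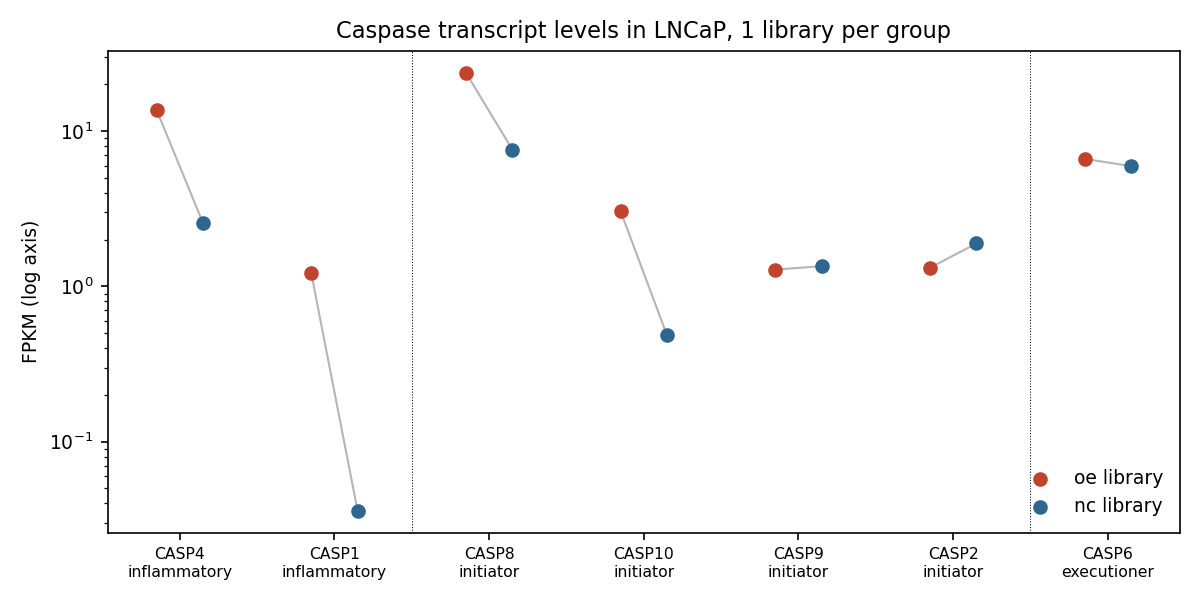
FPKM of the 7 caspases described on a log axis, with the oe library at the left and the nc library at the right of each pair and a grey line joining them. The lines of CASP4, CASP1, CASP8 and CASP10 are the steepest, and those of CASP9 and CASP6 are nearly flat.

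Both measured inflammatory caspases were higher in the oe library. CASP4, the cytosolic lipopolysaccharide sensor (ENSG00000196954.13_3, chromosome 11, 104813593 to 104840163, minus strand), was measured at 13.7 FPKM in the oe library and 2.57 FPKM in the nc library, a log2 ratio of 2.05. That was the highest ratio of the 7, 181st from the top of 11126 genes whose higher value was 1 FPKM or more. CASP4 stood above 74.5% of those genes in the oe library and above 23.9% in the nc library. CASP1, the interleukin-converting enzyme (ENSG00000137752.23_4, chromosome 11, 104896170 to 104905977, minus strand), was measured at 1.22 FPKM in the oe library and 0.0358 FPKM in the nc library, a log2 ratio of 1.10. CASP1 stayed low in the same set of 11126 genes, above 6.49% of them in the oe library and 0.386% in the nc library. CASP4 was the more abundant of the pair in both libraries. The inflammatory class had a median log2 ratio of 1.57 over its 2 measured members, and its summed FPKM was 14.96 in the oe library and 2.60 in the nc library. CASP1 reached 1 FPKM in the oe library alone, so no other direction was possible for it. With 1 FPKM required in both libraries, CASP4 alone was left in the class.

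The initiators of death receptors, CASP8 and CASP10, were higher in the oe library, while those of the apoptosome and the PIDDosome, CASP9 and CASP2, were within 2-fold. CASP8, the apical protease of death receptor signalling (ENSG00000064012.21_4, chromosome 2, 202098166 to 202152434, plus strand), was measured at 23.8 FPKM in the oe library and 7.62 FPKM in the nc library, a log2 ratio of 1.53. CASP10, its paralogue at the same receptors (ENSG00000003400.14_4, chromosome 2, 202047604 to 202094129, plus strand), was measured at 3.05 FPKM in the oe library and 0.485 FPKM in the nc library, a log2 ratio of 1.45. CASP10 reached 1 FPKM in the oe library alone, so no other direction was possible for it. CASP8 was the more abundant of the pair in both libraries. CASP9, the apoptosome initiator (ENSG00000132906.17_3, chromosome 1, 15817327 to 15853029, minus strand), was measured at 1.28 FPKM in the oe library and 1.35 FPKM in the nc library, a log2 ratio of -0.04 whose sign turned to 0.03 after scaling both libraries to an equal summed FPKM. CASP2, the PIDDosome initiator (ENSG00000106144.19_2, chromosome 7, 142985308 to 143004789, plus strand), was measured at 1.32 FPKM in the oe library and 1.89 FPKM in the nc library, a log2 ratio of -0.32. The FPKM of CASP8 was 18.6 times that of CASP9 in the oe library and 5.64 times in the nc library. The class had a median log2 ratio of 0.70, a value between its pairs that describes no single member.

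CASP6, an executioner that cuts nuclear lamins (ENSG00000138794.9_2, chromosome 4, 110609778 to 110624739, minus strand), was within 2-fold. It was measured at 6.64 FPKM in the oe library and 5.96 FPKM in the nc library, a log2 ratio of 0.14. CASP6 stood above 52.0% of the genes of at least 1 FPKM in the oe library and above 49.2% of them in the nc library, near the middle of both. Its ratio ran from 0.14 to 0.24 over the settings tried. The medians of the inflammatory and initiator members were 1.57 and 0.70 on the same scale. Over members of 1 FPKM or more in both libraries the initiator median was -0.04, below the 0.14 of CASP6, since CASP10 then drops out. With a pseudocount of 0.1 the inflammatory median was 2.83. With 1 library per group the differences between classes had no test, and the order of initiators and CASP6 depended on the filter.

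**Figure D2:**
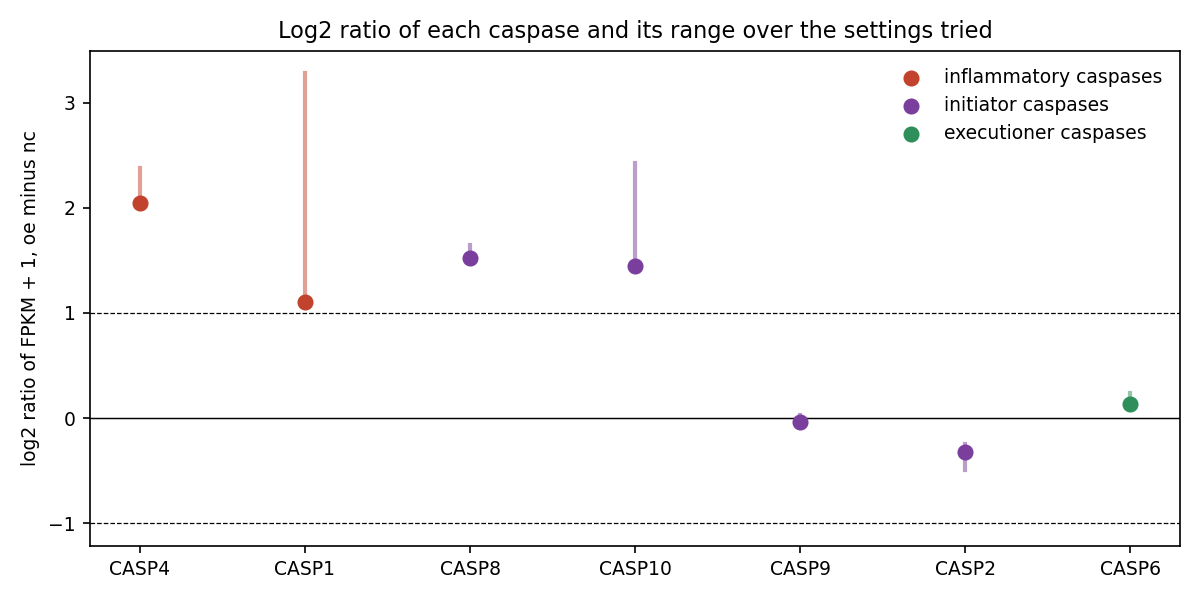
Log2 ratio of FPKM + 1, oe minus nc, for each caspase (points), with a bar from the lowest to the highest value over the settings tried, other pseudocounts among them; dashed lines mark 2-fold. CASP4, CASP1, CASP8 and CASP10 lie above the upper line, from 1.10 to 2.05, CASP6 lies between 0 and that line, and CASP9 and CASP2 lie just below 0.

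Of the 7 caspases described, 4 were at least 2-fold higher in the oe library and 0 were at least 2-fold lower, where 6.46% of all 11126 genes were 2-fold higher and 5.83% were 2-fold lower. The median log2 ratio was 1.10 over the 7 caspases and -0.01 over all genes. All 7 passed the filter of 1 FPKM in the higher library, but CASP1 and CASP10 were under 1 FPKM in the nc library, so that no other direction was possible for them. Of the 5 with 1 FPKM or more in each library, CASP4 and CASP8 were 2-fold higher, where 4.54% of all such genes were. The log2 ratios of the low members depended most on the pseudocount, with CASP1 between 1.10 and 3.28 and CASP10 between 1.45 and 2.43 over the settings tried, against 1.53 to 1.65 for CASP8. In the authors' deposited table of genes higher by a fold of at least 1.5, which held 14.7% of the listed genes, 4 of the 7 appeared: CASP4 with a fold of 4.13, CASP8 with 2.88, CASP10 with 2.73 and CASP1 with 2.14. The authors' deposited table of lower genes, with 14.4% of the listed genes, held 0 of the 7.

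**Figure D3:**
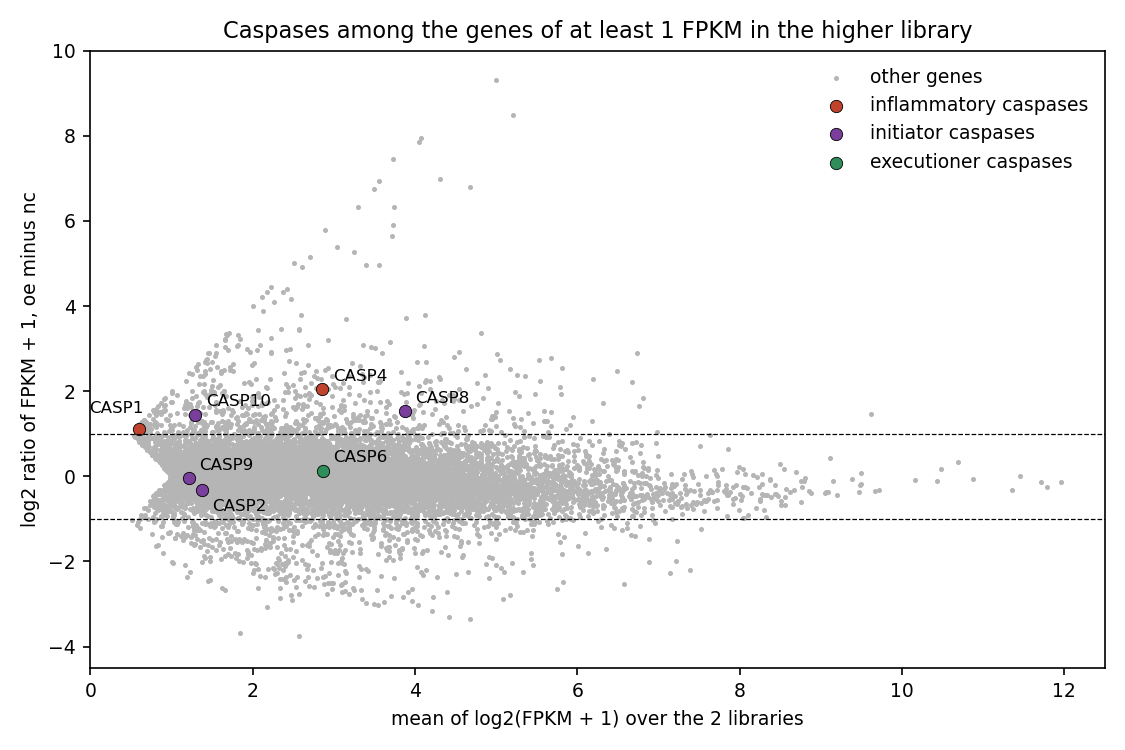
Each point is a gene whose higher value was 1 FPKM or more, placed by its mean log2(FPKM + 1) over both libraries and its log2 ratio, oe minus nc, with caspases coloured by class and dashed lines at 2-fold. CASP1, CASP9, CASP10 and CASP2 lie at the low end of expression, CASP4 and CASP6 in the middle, and CASP8 farther to the right.

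The 4 members past 2-fold lie in 2 family clusters. Among the listed genes, CASP4 and CASP1 are neighbours on chromosome 11, with annotated starts 82.6 kb apart on the same strand. CARD16, which encodes a decoy of the CASP1 recruitment domain, starts 15.9 kb from CASP1. CARD16 was measured at 1.52 FPKM in the oe library and 0.0760 FPKM in the nc library, a log2 ratio of 1.23, and 10.6% of its 50-base words are shared with CASP1. The 3 genes were all past 2-fold higher. CASP1 and CARD16 were under 1 FPKM in the nc library, so neither could be past 2-fold lower. The only other listed gene within 1000000 bases of CASP1 started 970 kb away and had a log2 ratio of 0.42. On chromosome 2, CASP10 and CASP8 start 50.6 kb apart, and CFLAR, the catalytically inactive relative of CASP8 that restrains it at death receptors, starts 117 kb from CASP8. CFLAR was measured at 5.33 FPKM in the oe library and 1.98 FPKM in the nc library, a log2 ratio of 1.09. CASP10, under 1 FPKM in the nc library, could not be past 2-fold lower. By FPKM, CASP8 was 4.47 times CFLAR in the oe library and 3.85 times in the nc library. The 18 genes of at least 1 FPKM within 1000000 bases of CASP8 had a median log2 ratio of 0.05. Of these, only CASP10, CFLAR and BZW1, at 1.27, were past 2-fold higher, and only SGO2, at -1.63, was past 2-fold lower. By the same rule 6.46% of all genes were higher and 5.83% lower. BZW1 and SGO2 were picked after their values were seen. None of the 7 caspases overlapped another listed gene on the deposited coordinates.

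**Figure D4:**
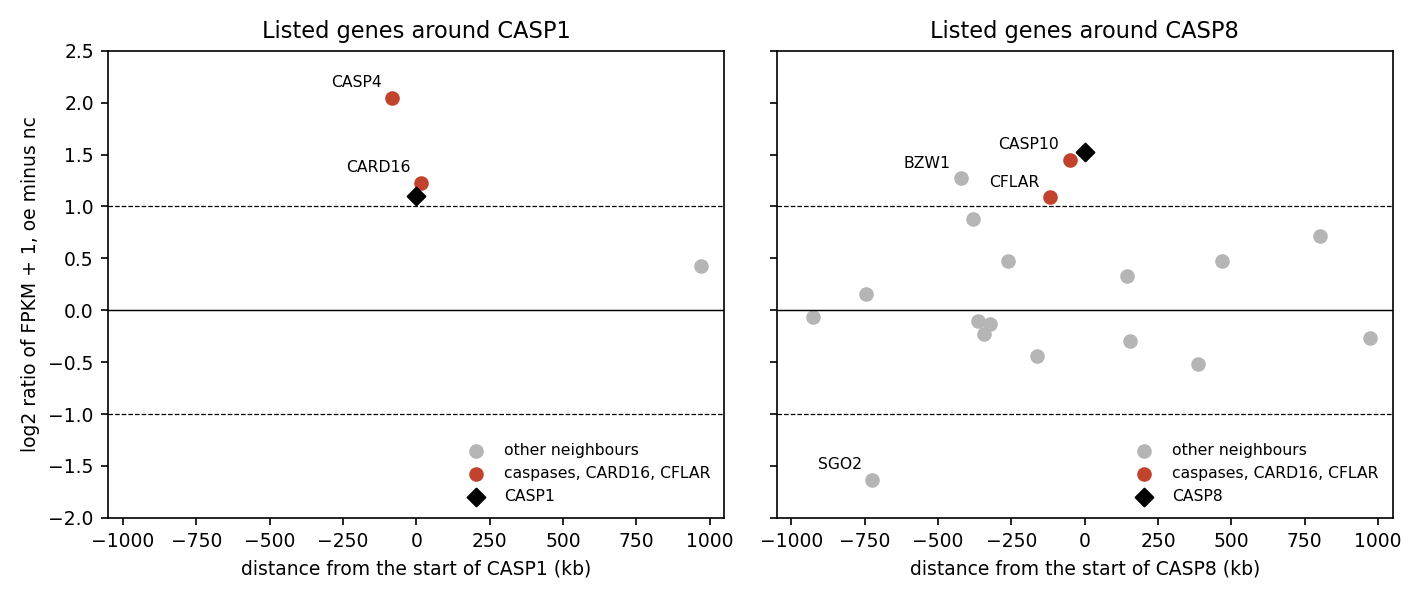
Log2 ratio, oe minus nc, of listed genes whose higher value was 1 FPKM or more against the distance of their annotated starts from CASP1 (left) and CASP8 (right), in kb; diamonds are CASP1 and CASP8, and dashed lines mark 2-fold. CASP4 and CARD16 beside CASP1, and CASP10 and CFLAR beside CASP8, lie above the upper line, while most other neighbours of CASP8 lie near 0.

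RefSeq promoters (250 bases before to 50 after a start site, build GRCh38.p14, whose coordinates differ from those of the deposited table) were held for 5 of the 7 members described, CASP4, CASP8, CASP9, CASP2 and CASP6, with 9 start sites among them. Those of CASP4 and of the most upstream start of CASP8 are shown because these members had the highest ratios of their classes, and that of the downstream start of CASP9 because its log2 ratio was the nearest to 0 of the 7; CASP9 was picked after its values were seen. Capitals mark letters that match a GAS motif (TTCNNNGAA, bound by STAT factors) or an ISRE-like motif (GAAANNGAA, a form of the element bound by interferon-activated factors), on either strand.
CASP4, chr11:104968525-104968824, minus strand: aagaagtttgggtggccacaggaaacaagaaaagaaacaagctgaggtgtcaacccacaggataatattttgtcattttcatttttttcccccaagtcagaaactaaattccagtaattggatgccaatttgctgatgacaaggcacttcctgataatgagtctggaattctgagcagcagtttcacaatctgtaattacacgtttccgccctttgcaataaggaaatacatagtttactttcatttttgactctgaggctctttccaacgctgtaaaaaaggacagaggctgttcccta
CASP8, chr2:201233213-201233512, plus strand: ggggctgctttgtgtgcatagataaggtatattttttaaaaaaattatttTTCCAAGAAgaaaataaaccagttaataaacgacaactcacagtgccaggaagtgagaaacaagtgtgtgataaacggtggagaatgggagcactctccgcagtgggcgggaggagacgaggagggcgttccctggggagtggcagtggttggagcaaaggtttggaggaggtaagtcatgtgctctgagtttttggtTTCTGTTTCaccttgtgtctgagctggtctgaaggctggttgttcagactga
CASP9, chr1:15524166-15524465, minus strand: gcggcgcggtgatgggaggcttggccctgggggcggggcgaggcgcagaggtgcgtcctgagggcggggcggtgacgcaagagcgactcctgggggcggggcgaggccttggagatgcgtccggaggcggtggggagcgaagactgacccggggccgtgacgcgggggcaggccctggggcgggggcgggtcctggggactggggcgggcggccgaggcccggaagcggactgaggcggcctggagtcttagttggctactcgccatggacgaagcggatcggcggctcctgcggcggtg
The CASP8 promoter held 1 GAS match, 200 bases before the start site, and 1 ISRE-like match that begins 2 bases before it, and the matches do not overlap. Of all 35116 RefSeq promoters, 7.66% held a GAS match and 8.11% an ISRE-like match. An NF-kappaB-like motif (GGGANTTTC), held by 1.28% of all promoters, was found in none of the 9 caspase promoters. A match to the letters of a TATA box (TATAAA), held by 11.5%, began 139 bases before the second start site of CASP8. The CASP4 window and the windows of CASP9, CASP2 and CASP6 held none of the 4 motifs. The share of G and C was 39.7% in the CASP4 promoter and from 43.0% to 54.3% in the CASP8 promoters, against 76.0% and 71.3% in those of CASP9, 72.0% in that of CASP6, 71.3% and 43.0% in those of CASP2 and a median of 58.7% over all promoters.

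The genes that act upstream of the caspases are given from lists of receptors and platforms. Of the 6 death receptors listed, 4 reached 1 FPKM, of which 2 were past 2-fold higher and 0 lower, where 6.46% of all genes were higher and 5.83% lower. The median log2 ratio was 0.93 over those 4 and 0.54 over all 6 receptors without the filter. TNFRSF21, a receptor with a death domain also called DR6, was measured at 49.1 FPKM in the oe library and 5.01 FPKM in the nc library (log2 ratio 3.06), and TNFRSF1A, the main TNF receptor, at 23.2 FPKM in the oe library and 10.0 FPKM in the nc library (1.13). The most abundant receptor of the nc library, TNFRSF10B, was at 46.8 FPKM in the oe library and 28.1 FPKM in the nc library (0.72). TNFRSF10A was at 8.40 FPKM in the oe library and 9.03 FPKM in the nc library (-0.09). Both of these were within 2-fold. FAS and TNFRSF25 stayed under 1 FPKM in both libraries, with log2 ratios of 0.12 and 0.36. Of 9 measured genes of the apoptotic activation platforms, CFLAR alone was past 2-fold, 0 were lower and the median log2 ratio was -0.14. FADD, the adaptor that recruits CASP8 and CASP10, was measured at 18.9 FPKM in the oe library and 20.9 FPKM in the nc library. CYCS, the cytochrome c that triggers the apoptosome and the most abundant gene of the list, was measured at 66.0 FPKM in the oe library and 89.1 FPKM in the nc library, and APAF1, the scaffold on which CASP9 assembles, at 1.35 FPKM in the oe library and 0.632 FPKM in the nc library. FADD, APAF1 and the further examples that did not pass 2-fold below were picked after their values were seen.

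On the inflammatory side, 4 of 15 inflammasome genes were in the table, and the others were not analysed here. Of the 3 that reached 1 FPKM, 2 were at least 2-fold higher and 0 lower, where 6.46% of all genes were higher and 5.83% lower. The median log2 ratio of the inflammasome genes was 1.23 over those 3, 0.74 over all 4 without the filter and 3.21 over the 3 with a pseudocount of 0.1. IFI16, a sensor of nuclear DNA, was measured at 4.23 FPKM in the oe library and 0.316 FPKM in the nc library (log2 ratio 1.99), and CARD16 is given above. Both were under 1 FPKM in the nc library and could only be higher. Only NEK7 reached 1 FPKM in both libraries. NEK7, a kinase that licenses the NLRP3 inflammasome, was measured at 8.56 FPKM in the oe library and 7.06 FPKM in the nc library (0.25). Of 8 gasdermin symbols, older names among them, 4 were in the table and only GSDMB, a pore-forming protein cut by granzyme, reached 1 FPKM, at 3.69 FPKM in the oe library and 1.16 FPKM in the nc library (1.12). Gasdermin D and the interleukins cut by caspases were not analysed here.

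Among the inhibitors and substrates, 1 gene of each list was past 2-fold in each direction. Of 6 measured IAP proteins, which bind caspases or their activators, BIRC3 was past 2-fold higher and BIRC5 past 2-fold lower, and the median log2 ratio was 0.41. Over all genes 6.46% were higher and 5.83% lower, and 1 of 6 each way is no result about the list. BIRC3, a ubiquitin ligase that restrains CASP8 at the TNF receptor, was measured at 52.1 FPKM in the oe library and 0.271 FPKM in the nc library (log2 ratio 5.39), and BIRC5, an IAP of the mitotic spindle, at 1.01 FPKM in the oe library and 7.30 FPKM in the nc library (-2.04). BIRC3 and GSN were under 1 FPKM in the nc library, so no other direction was possible for them. XIAP, a direct inhibitor of caspases, CASP9 among them, was measured at 2.39 FPKM in the oe library and 1.91 FPKM in the nc library (0.22). The IAP antagonist DIABLO, released from mitochondria, was measured at 10.8 FPKM in the oe library and 11.2 FPKM in the nc library, and 0 of 2 measured antagonists were past 2-fold. Of 13 apoptotic substrates, GSN was past 2-fold higher and LMNB1 past 2-fold lower, 1 of 13 each way, which is near the 6.46% higher and 5.83% lower of all genes and no result about the list. Their median log2 ratio was 0.16. GSN, the actin-severing protein gelsolin, was measured at 4.16 FPKM in the oe library and 0.776 FPKM in the nc library (1.54). LMNB1, the lamin B1 of the nuclear envelope, was at 7.18 FPKM in the oe library and 52.8 FPKM in the nc library (-2.72). PARP1, a DNA repair enzyme and the most abundant substrate in both libraries, was at 40.3 FPKM in the oe library and 65.5 FPKM in the nc library (-0.69). BID, which CASP8 cuts to reach the mitochondria, was measured at 5.89 FPKM in the oe library and 2.75 FPKM in the nc library, a log2 ratio of 0.88 that passed 2-fold with a pseudocount of 0.1.

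**Figure D5:**
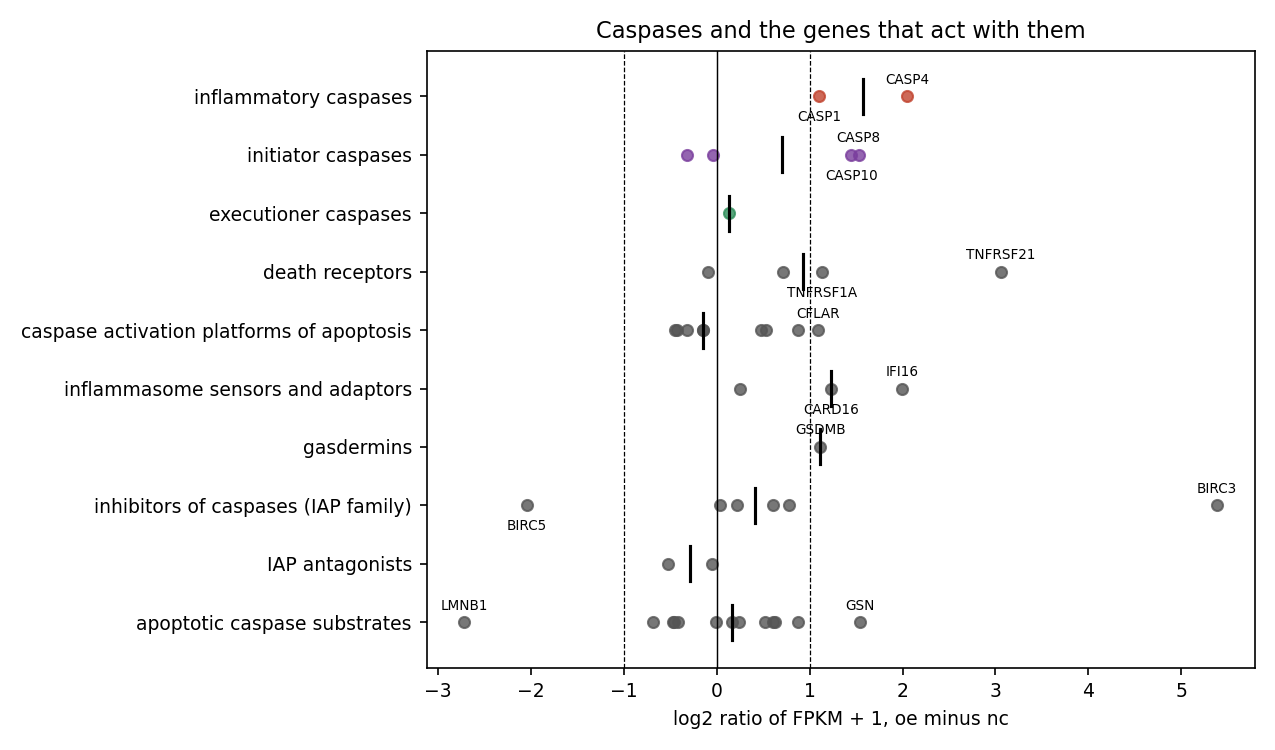
Log2 ratio of FPKM + 1, oe minus nc, of the caspases described, by class, and of the lists of genes that act with them, for genes whose higher value was 1 FPKM or more; each point is a gene, black bars are list medians, dashed lines mark 2-fold and genes past it are named. Over the genes plotted, the death receptors, inflammatory caspases and inflammasome genes have medians of 0.93, 1.57 and 1.23, which without the filter are 0.54, 1.57 and 0.74, and the activation platforms and substrates have medians of -0.14 and 0.16.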

How the data were processed

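RNA-seq values of LNCaP were deposited by the authors as FPKM per gene, per the file headers. The submitters' processing notes name StringTie 2.1.0, and no aligner is named in the sources read. The notes name mm10, yet the symbols and identifiers are human, and 11946 of 12075 identifiers carry the suffix of GENCODE mapped to GRCh37, from which that build is inferred for the deposited coordinates. The authors' deposited tables give log2 fold changes and linear fold ratios on FPKM + 1, which was checked on the values. Their p and q columns were not used. Every listed gene was at 0.50 FPKM or more in 1 library at least. Depth is unknown, so no interval is given.

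Here, the log2 ratio of FPKM + 1, oe over nc, was taken over all 11126 genes whose higher value was 1 FPKM or more (pandas 2.3.3), with 2-fold as the size rule. No test was possible with 1 library per group. Members and lists were chosen with earlier results of these data known. Outside the caspases, genes past 2-fold, the most abundant of each pathway list and all listed death receptors are named. Other names are said to be picked later. Some items, members among them, are not reported here, and counts, medians and sums over caspases and lists leave them out. Sequences came from RefSeq (GRCh38.p14) and GENCODE 29. The alternatives tried were other pseudocounts, filters and scalings, another size rule and class means.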

Additional observations from a re-analysis of the deposited data

How the results depend on the processing

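The count of the 7 caspases at least 2-fold higher stayed at 4 under both smaller pseudocounts, without a filter and under all 3 scalings, and was 4 by a rule of 1.5-fold. It was 2 with a filter of 1 FPKM in both libraries and 2 with a filter of 5 FPKM in the higher library, which leave fewer members: CASP1 and CASP10 drop out of each. The count lower stayed at 0 in all settings. The initiator median, 0.70 as reported, was 1.53 with the 5 FPKM filter, which leaves CASP8 alone in that class, and -0.04 with the filter of 1 FPKM in both libraries, which drops CASP10. The inflammatory median, 1.57 as reported, was 2.83 with a pseudocount of 0.1 and 2.05 with either of these filters, which leave CASP4 alone. No caspase described crossed 2-fold under another pseudocount or scaling; scaling both libraries to an equal summed FPKM moved the median of all genes by 0.10 on the log2 scale. No paired analysis was possible because each group held 1 library. No replicate could be left out for the same reason, and the unknown depth limits what the values of CASP1 and CASP10 in the nc library can show.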
